A study of Mus musculus with 3 samples.

Results

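Mature CD8-side single-positive thymocytes were picked out of 1 lane of droplet single-cell RNA sequencing by their transcripts, and 188 cells met the rule, of 4091 cells with a T cell receptor β (TRB) contig and 9349 cells assigned to a culture pool. The rule asked for at least 600 detected genes, 0.4 to 10% of unique molecular identifiers (UMIs, each a counted RNA molecule) from mitochondrial genes, a TRB contig, and at least 80% of 10 or more hashtag UMIs from 1 hashtag. It then asked for at least 2 UMIs of Klf2, S1pr1 and Ccr7 together with at least 1 of Klf2 or S1pr1, for at least 2 UMIs of Cd8a and Cd8b1 together, and for no UMI of Rag1, Dntt, Klrd1, Cd4, Zbtb7b or Cd40lg. All cells were labelled as wild-type and untreated and were taken on day 13 of culture at an air-liquid interface, from C57BL/6J mice for the thymus cells. Both kinds of culture had medium with the growth factor FGF7, and Thiazovivin, a kinase inhibitor, was present at the start. The ORFTOC pool came from 2 organoid reaggregate fetal thymic organ cultures, in which thymic epithelial cells (TECs) from E16.5 thymi, first grown as organoids, were reaggregated with E13.5 thymus cells depleted of EpCAM-positive cells and with wild-type embryonic fibroblasts (MEFs), whose strain is not given in the sources used here. The FTOC pool held 2 fetal thymic organ cultures, which are intact E13.5 thymic lobes kept in the same medium. Cultures were pooled before hashtags were added, so each pool was 1 sample, the cultures within a pool could not be told apart, and no test between pools was possible. Intervals are 95% intervals (Clopper-Pearson for shares, exact Poisson or conditional for UMI counts) and cover counting error only, not the spread between cultures.

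In the thymus, immature cells that carry both CD4 and CD8 test their T cell receptor on self-peptides shown by stromal cells. A cell whose receptor binds MHC class I keeps CD8, switches on the transcription factor Runx3 and shuts off Cd4, while a cell whose receptor binds MHC class II keeps CD4 through ThPOK, the product of Zbtb7b. At the end of maturation the factor Klf2 drives S1pr1, the receptor through which cells leave towards the sphingosine-1-phosphate of blood, and Ccr7 guides cells into the medulla. Rag1 and Dntt, by contrast, serve the rearrangement of receptor genes and mark the stages before.

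The selected cells held 1340522 UMIs in ORFTOC (124 cells, median 9284 per cell) and 537258 in FTOC (64 cells, median 6704 per cell). Hashtags were cleaner in ORFTOC: the median share of the leading hashtag was 99.7% in ORFTOC members and 94.5% in FTOC members. A share of 95% or more was reached by 119 of 124 ORFTOC members and 27 of 64 FTOC members. Sex-linked transcripts also separated the pools, since 0 of 64 FTOC members held a UMI of a Y-linked gene, while 52 of 124 ORFTOC members held one without Xist and 5 held both.

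The genes of the rule describe the selection and are no finding. Among the members the median Klf2 count was 7 UMIs per cell in ORFTOC (range 0 to 32) and 5 in FTOC (0 to 22). Cd8b1, the β chain of the coreceptor, had a median of 5 UMIs in both pools, and both Cd8 chains were detected in 110 of 124 ORFTOC members and 55 of 64 FTOC members. S1pr1 was seen in fewer cells, 76 of 124 and 31 of 64. At the edges of the rule, 10 cells stood at 2 UMIs of the maturity genes and 17 cells that met every other condition had 1. Likewise 11 cells had 2 Cd8 UMIs, while 14 cells had 1, and 13 cells were lost through a single UMI of a CD4-side gene. A missing Cd4 UMI is weak evidence by itself, as 1210 of 2668 cells with a Rag1 or Dntt UMI and at least 2 Cd8 UMIs (45.4%, 43.4 to 47.3) had none.

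CD8-side mature cells made up 6.57% of TRB-positive cells in ORFTOC (124 of 1887) and 2.90% in FTOC (64 of 2204), with intervals of 5.50 to 7.79 and 2.24 to 3.69. ORFTOC gave 65.96% of the members (58.7 to 72.7) and 45.2% of the other TRB-positive cells (43.6 to 46.7). The 2 pools came closer when the members were counted among all mature cells without a Klrd1 UMI, whatever their coreceptor. There they were 36.9% in ORFTOC (124 of 336, 31.7 to 42.3) and 32.2% in FTOC (64 of 199, 25.7 to 39.1). The excess in ORFTOC among TRB-positive cells ended when hashtag purity was raised to 95%. The shares were then 7.17% (5.98 to 8.52) in ORFTOC and 7.26% (4.84 to 10.4) in FTOC. In FTOC that limit kept 42.2% of members (27 of 64) but 16.1% of the other TRB-positive cells (345 of 2140). In ORFTOC it kept 96.0% (119 of 124) and 87.35% (1540 of 1763). The part of this uneven loss in the change was not tested. The excess shrank to 5.97% (4.79 to 7.33) against 4.78% (3.66 to 6.12) when the rule was applied to cells thinned to 2000 UMIs.

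**Figure D1:**
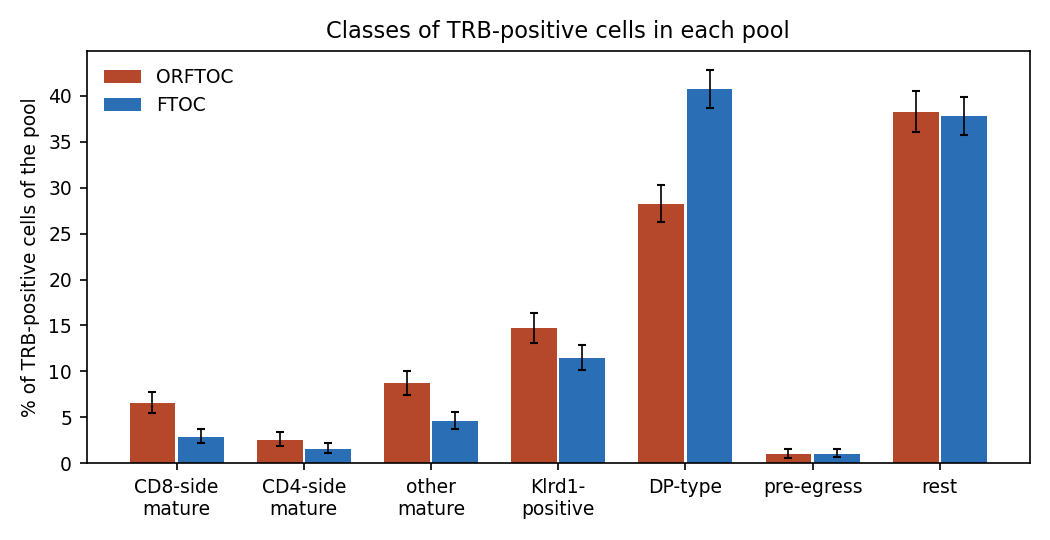
Share of the TRB-positive cells of each pool (vertical axis, %) in each class of the rule, with ORFTOC in red and FTOC in blue; bars are 1 pool each and error bars are 95% Clopper-Pearson intervals. CD8-side mature cells were 6.57% in ORFTOC and 2.90% in FTOC, and cells of the DP type were 28.2% and 40.7%.

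Further classes served as points of reference. CD4-side mature cells (82) passed the same maturity conditions with at least 2 UMIs of Cd4, Zbtb7b and Cd40lg and none of Cd8a or Cd8b1. Klrd1-positive cells (530) held a UMI of Klrd1, a receptor of natural killer (NK) cells and innate-like T cells. Cells of the double positive (DP) type (1430) held Rag1 or Dntt, Cd4 and at least 2 Cd8 UMIs. The rest of the mature cells without Klrd1 (265) fell on neither side.

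A T cell receptor α (TRA) chain, which the rule did not use, was assembled in 104 of 124 ORFTOC members (83.9%, 76.2 to 89.9) and in 54 of 64 FTOC members (84.4%, 73.1 to 92.2). These intervals overlapped almost fully. In cells of the DP type, in which TRA genes are being rearranged, it was 31.5% (27.6 to 35.7) in ORFTOC and 36.8% (33.6 to 40.0) in FTOC, but these cells were also shallower, with medians of 2529 and 1884 UMIs. In CD4-side mature cells it was 93.8% and 91.2%. Members used TRAJ genes from 4 to 58, with a median number of 33 in ORFTOC (31 to 39) and 39 in FTOC (32 to 40). High numbers lie nearest to the V genes and are as a rule joined first. The corresponding medians were 31 and 32 in the DP type, 34 and 34 in CD4-side cells, and 40 (34 to 42) and 44 (42 to 47) in Klrd1-positive cells. The intervals of the members in the 2 pools overlapped.

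Each β chain carries a junction where V, D and J segments of the TRB locus on chromosome 6 were joined. Cells with the same junction can descend from 1 cell or have made it separately, and descent was not tested. The D segments are short. As the reference transcripts give them, with every base in capitals, they are the following.
Trbd1: GGGACAGGGGGC
Trbd2: GGGACTGGGGGGGC
Below are junctions, from the codon of the conserved cysteine to that of the closing phenylalanine, that CD8-side mature cells of ORFTOC shared with other cells of their pool. Bases that neither the germline V nor the germline J segment explains are in capitals.
TRBV13-3 with TRBJ1-1, 11 cells: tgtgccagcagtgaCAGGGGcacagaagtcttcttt
TRBV3 with TRBJ1-1, 6 cells: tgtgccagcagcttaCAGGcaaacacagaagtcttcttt
TRBV12-2 or TRBV13-2 with TRBJ1-1, 4 cells: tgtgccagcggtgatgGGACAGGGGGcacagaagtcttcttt
TRBV2 with TRBJ1-1, 4 cells: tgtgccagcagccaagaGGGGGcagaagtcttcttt
TRBV13-1 with TRBJ1-3, 3 cells: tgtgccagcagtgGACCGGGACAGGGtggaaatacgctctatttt
In the first of these all 6 capital bases are found within Trbd1, so no base had to be added to make it, whereas 9 of the 13 in the last match a D segment. The chain of 11 cells was found in 1 CD8-side mature cell, 6 Klrd1-positive cells, 1 cell of the DP type, 1 other mature cell and 2 of the rest. The last chain was the only one held by 2 members.

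A chain was called repeated when at least 2 TRB-positive cells of its pool shared V gene, J gene and junction. Repeated chains were 26 of 128 TRB chains of ORFTOC members (20.3%, 13.7 to 28.3). In FTOC members they were 2 of 68 (2.94%, 0.36 to 10.2), and these intervals did not overlap. The same order of the pools was seen in cells of the DP type, with 51.6% and 14.9%, and in Klrd1-positive cells, with 23.6% and 2.58%. The 26 chains of ORFTOC members were 25 different chains, of which 10 were found in 3 or more cells. Cells with the same chain lay in many classes. Of the 25 chains, 12 were found again among the rest of the TRB-positive cells, 10 among other mature cells, 8 in the DP type, 7 in Klrd1-positive cells and 0 in CD4-side mature cells, of which only 48 were captured in ORFTOC. Where a member and a cell with the same TRB chain both had a TRA chain, the α chain was shared in 2 of 25 pairs. Of the 25 chains, 0 were found in the FTOC pool. Among cells with an Xist UMI and no Y-linked UMI the share in ORFTOC members was 10.5% (2.94 to 24.8), and that in FTOC members was 0% (0 of 52 chains, up to 6.85%).

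Junctions of the members were short of added bases. The enzyme TdT, encoded by Dntt, adds bases that no segment carries. Added bases were counted as those left after the best match to V, D and J, a lower bound. None were left in 43 of 128 TRB junctions of ORFTOC members (33.6%, 25.5 to 42.5) and in 28 of 68 of FTOC members (41.2%, 29.4 to 53.8). In the DP type the shares were 11.5% (8.98 to 14.5) and 11.7% (9.68 to 13.9). Klrd1-positive cells resembled the members, with 41.1% and 37.3%, as did the other mature cells, with 43.8% and 45.4%. CD4-side mature cells lay between, at 26.5% (13 of 49 chains, 14.9 to 41.1) in ORFTOC and 9 of 36 chains in FTOC (12.1 to 42.2%). Among members with an Xist UMI and no Y-linked UMI the shares were 18.4% (7.74 to 34.3) and 38.5%. Dntt was one of the genes of the rule, so members could not hold its RNA when they were sampled, while cells of the DP type could. The DP type was itself defined by a Rag1 or Dntt UMI. The part of the cut on Dntt in the difference was not tested. Within ORFTOC members, 13 of 25 different repeated chains (52.0%, 31.3 to 72.2) and 30 of 102 chains found in 1 cell (29.4%, 20.8 to 39.2) had no added base.

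A pair of junctions joined the pools. Of 1413 and 2157 different TRB chains in ORFTOC and FTOC, 26 were found in both, and 2 of these were carried by an FTOC member and by an ORFTOC cell of the other mature class.
TRBV16 with TRBJ2-5: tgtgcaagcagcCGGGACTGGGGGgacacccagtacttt
TRBV20 with TRBJ1-2: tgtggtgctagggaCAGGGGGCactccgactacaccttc
The first leaves 1 base beyond its D match and the second none. The cells lay in different cultures by their hashtags. The hashtag purity behind that call was lower in FTOC, as given above.

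**Figure D2:**
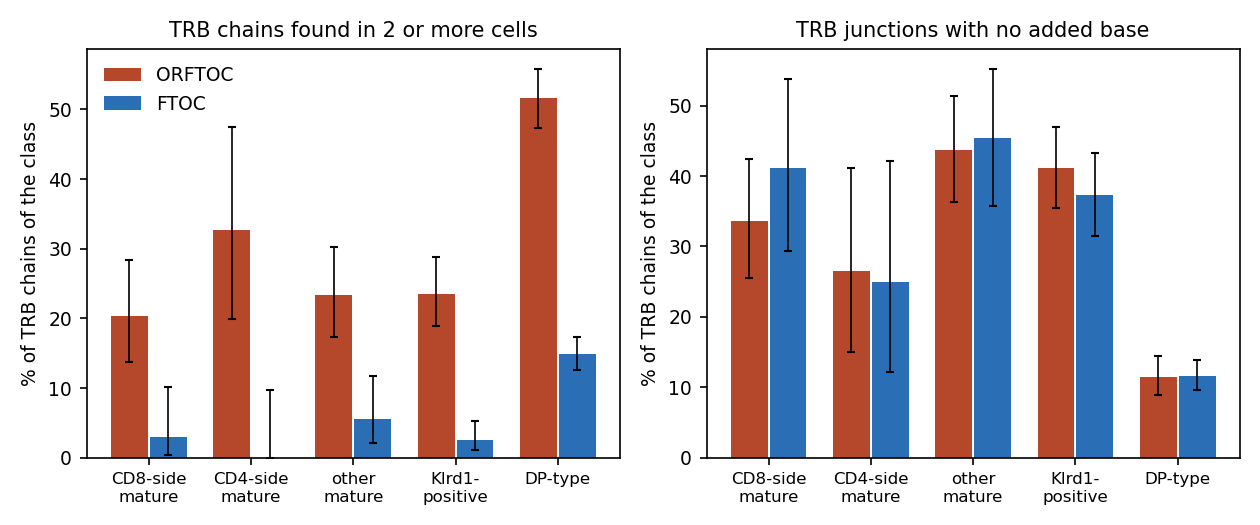
Left, TRB chains found in at least 2 cells of the same pool, as % of the TRB chains of each class (vertical axis); right, TRB junctions with no base beyond the V, D and J matches, as % of chains. Bars are ORFTOC (red) and FTOC (blue) with 95% Clopper-Pearson intervals. Among CD8-side mature cells repeated chains were 20.3% and 2.94%, and junctions without an added base were 33.6% and 41.2%, above the 11.5% and 11.7% of the DP type.

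V gene usage of the members was broad. Reads of TRBV12-2 and TRBV13-2 joined in 1 contig name led with 24 of 196 chains (12.2%, 8.01 to 17.7, against 9.23% of the other TRB chains). TRBV20, TRBV3 and TRBV5 followed with 15 chains each. TRBJ1-1, the J segment of most of the shared junctions above, was used by 22.4% of member chains (16.8 to 28.9) and by 16.0% (14.9 to 17.1) of the others. TRBV1 was used by 3.06% (1.13 to 6.54) and 7.59% (6.79 to 8.44). Of the TRAV genes, TRAV6D-6 was most used (9 of 179), followed by TRAV10 and TRAV12D-3 (8 each). TRAV10 was used by 4.47% (1.95 to 8.62) of member chains and 1.17% of the others (0.75 to 1.76). The pairing of TRAV11 with TRAJ18, the invariant receptor of NKT cells, was found in 0 members and 6 chains in all. The genes TRBJ1-1, TRBV1 and those of the junctions above were singled out after their values were seen.

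Genes outside the rule also differed between the members and CD4-side mature cells. Against CD4-side mature cells, 1407 genes had a mean of at least 100 CPM (UMIs per 1000000 UMIs), and 18 (1.28%) were at least 2-fold higher and 29 (2.06%) at least 2-fold lower in the members. Of the 29 lower genes 17, most of them stromal or MHC class II genes such as Col3a1, Dcn and H2-Aa, had over 40% of their CD4-side UMIs in 1 cell, and of the 18 higher genes 6 had over 40% of their UMIs in 1 member. The higher genes include Cd8a and Cd8b1, which the rule fixed, and Pth and Chga, which owed nearly all their UMIs to 1 member. Both groups were chosen by coreceptor transcripts, so these values are a description. Runx3, the regulator of the CD8 lineage on chromosome 4 (135120645 to 135177990, mm10), stood at 157 CPM in members and 73.4 CPM in CD4-side cells, a ratio of 2.13 (1.61 to 2.87). In ORFTOC members it was 146 CPM and in FTOC members 184 CPM.

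Several cytotoxic genes stood apart from those of CD4-side cells as well. Prf1, the perforin gene, did not, with 7 UMIs in members and 0 in CD4-side cells, a ratio of 1.02 (0.23 to 6.09) once that 0 is set to 3. Nkg7 encodes a granule protein of cytotoxic cells (chromosome 7, 43437138 to 43438246). It was at 425 CPM in members and 9.78 CPM in CD4-side cells, 43.5-fold apart (21.95 to 101). It was detected in 91 of 124 ORFTOC and 50 of 64 FTOC members. Thinned to 2000 UMIs, which left out 2 and 1 members, the shares were 44.3% and 57.1%, against 0.28% in epithelial cells, which should lack it (2131 cells, median 12821 UMIs). Ctsw, a protease of cytotoxic cells, followed with 250 and 53.8 CPM (4.64-fold, 3.41 to 6.48). Itgae, the integrin chain CD103 that mature CD8 thymocytes carry, was at 73.5 and 2.45 CPM, the latter being 2 UMIs, a ratio of 20.04 once that count is set to 3 (6.71 to 98.3). Cd7 and Plac8, named after their values were seen, were 5.21-fold and 3.87-fold higher. Ikzf2, which encodes Helios, was at 169 and 73.4 CPM. These cytotoxic genes were not particular to the members. In Klrd1-positive cells of ORFTOC and FTOC Nkg7 was at 704 and 810 CPM, against 386 and 521 CPM in members. Ctsw was at 461 and 490 CPM there, against 214 and 339 CPM. Itgae (120.9 and 122.5 CPM) and Plac8 (844 and 912 CPM) were also higher there, with intervals that overlapped those of the members in FTOC.

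The selection stage list was mixed: 7 of its 13 genes were lower in the members with an interval below 1, 3 (Ccr9, Cd24a and Id3) were higher with an interval above 1, and the intervals of 3 included 1. Itm2a, a gene induced during selection, was at 86.8 CPM against 308 CPM in CD4-side cells (3.55-fold lower, 2.90 to 4.35). Cd5, whose level follows the strength of self-recognition, was at 120 and 248 CPM (2.07-fold lower, 1.71 to 2.51). Nr4a1, an early target of receptor signals, was at 77.8 and 171 CPM (2.20-fold lower, 1.73 to 2.79). The costimulatory receptor gene Cd28 was at 74.0 and 156 CPM. Among genes below the expression limit, Tnfrsf4 (OX40) had 3 UMIs in the members and 58 in CD4-side cells. Ly6c1 was at 12.8 and 114 CPM.

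Several genes of the stage before were scarce. Of the 8 genes of the double-positive list none reached the expression limit in the members. The DP type was defined by a Rag1 or Dntt UMI, which the rule forbids in members, so values beside it are a description. Rag2, which works with Rag1 and was not in the rule, was at 1.06 CPM against 134 CPM in the DP type. Ptcra, the surrogate α chain, was at 0.53 and 79.3 CPM. Arpp21 was at 11.7 and 444 CPM. Themis and Tcf12 of the same list were at 68.2 and 54.3 CPM in members. In CD4-side mature cells they were at 63.6 and 35.5 CPM, and in all other TRB-positive cells at 174 and 155 CPM. Against all other TRB-positive cells, 11 of 1516 genes (0.726%) were at least 2-fold higher and 54 (3.56%) at least 2-fold lower. Apart from Klf2 and Ccr7 of the rule, the higher genes included Runx3, Ms4a4b (1081 against 497 CPM), Itgb7 (306 and 150 CPM), Ms4a6b, Tmsb10, Cnn2 and the protease gene Klk8 (224 and 80.1 CPM). Pth and Chga were in this list through 1 cell.

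**Figure D3:**
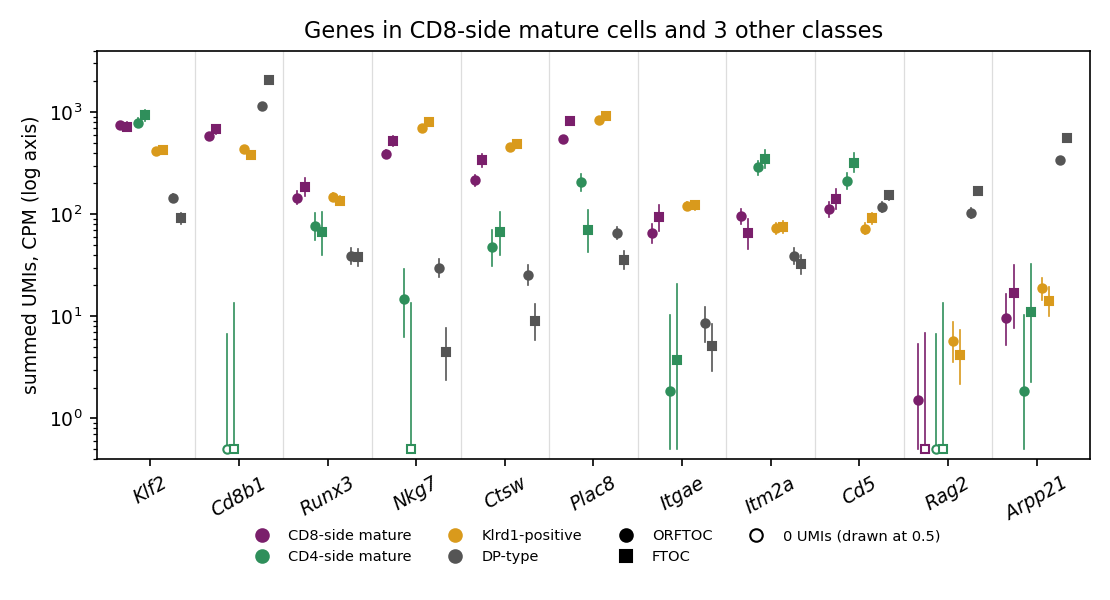
UMIs summed over the cells of a class and pool, in CPM (vertical log axis), for 11 genes in CD8-side mature, CD4-side mature, Klrd1-positive and DP-type cells; circles are ORFTOC, squares FTOC, lines 95% Poisson intervals, open symbols 0 UMIs drawn at 0.5. Klf2 and Cd8b1 were used to select the cells, while Nkg7 stood at 386 and 521 CPM in the CD8-side cells of the pools and Rag2 at or below 1.49 CPM.

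Of the NK receptor genes Klrb1c had 3 UMIs in 2 ORFTOC members. Klrk1, Klrc1, Klrc2, Klre1, Klra7 and the effector genes Gzmm and Fasl had 0 UMIs in the members, and a count of 0 over their 1877780 UMIs allows up to 1.60 CPM. Klrd1 had been excluded by the rule, and these receptors are often found with it. Eomes, the factor of innate-like CD8 cells, was at 15.7 CPM in ORFTOC and 11.2 CPM in FTOC, from 8 and 5 cells. Zbtb16 (PLZF) was at 2.24 and 1.86 CPM. Of the regulatory T cell list, Foxp3 was found in 4 and 1 cells. Of the 7 genes of the γδ list Trdv4, Sox13 and Blk had no UMI in the members. Its other genes were present, with 39 UMIs of Trdc, 66 of Tcrg-C1, 43 of Tcrg-C2 and 14 of Maf. At least 1 UMI of the γδ list was held by 39 of 124 ORFTOC and 18 of 64 FTOC members.

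Between the pools, 1424 genes had a mean of at least 100 CPM in the members. ORFTOC was at least 2-fold higher in 14 (0.983%) and at least 2-fold lower in 9 (0.632%), and the median log2 ratio of all these genes was −0.01. Of the 1424 genes 748 were lower and 676 higher in ORFTOC by any amount. The share of all genes with an interval that excludes 1 is not given here, so the interval counts of lists below have no such share beside them. Listed receptor and lineage genes above the expression limit stayed within 2-fold. In the list of TCR complex and proximal signalling genes 0 of 13 genes above the expression limit were 2-fold apart, with a median log2 ratio of −0.10. Of all 14 genes of that list 12 were lower in ORFTOC, 4 with an interval below 1. The other 2 were higher, 0 with an interval above 1. Cd3e was at 574 and 635 CPM and Zap70, the kinase that reads the receptor, at 163 and 164 CPM in ORFTOC and FTOC. Of the coreceptor lineage regulators 0 of 7 were 2-fold apart, and all 7 were lower in ORFTOC with log2 ratios from −0.46 to −0.07 (median −0.18). Cytokine receptor and survival genes had a median of 0.02 over 5 genes, with Bcl2, which protects resting cells from death, at 134 and 132 CPM.

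**Figure D4:**
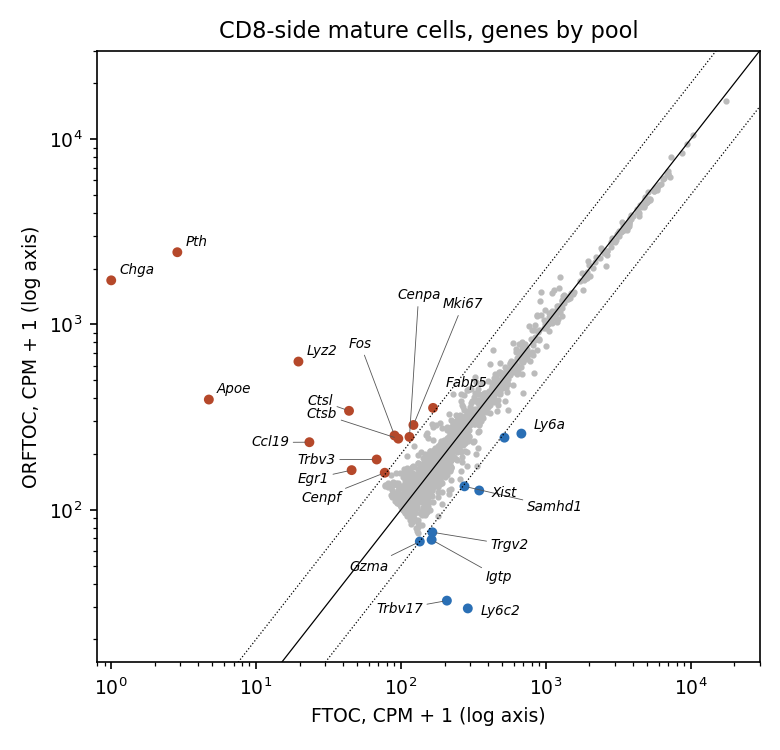
Genes of the CD8-side mature cells, FTOC (horizontal) against ORFTOC (vertical), UMIs summed over the cells of a pool, CPM + 1, log axes; the solid line is equality and the dotted lines are 2-fold. Red points are 14 genes at least 2-fold higher in ORFTOC and blue points 9 at least 2-fold lower, of 1424, most of them named. Pth, Chga and Lyz2 owed over 90% of their ORFTOC UMIs to 1 cell each.

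Ly6c2 stood furthest below in ORFTOC. It encodes one of the Ly6C surface proteins of memory-like and cytotoxic CD8 cells (chromosome 15, 75108161 to 75112066). Its level was 28.4 CPM in ORFTOC and 289 CPM in FTOC, a log2 ratio of −3.35 (−3.90 to −2.83). It was detected in 13 of 124 ORFTOC members and 22 of 64 FTOC members, and no single cell held more than 31.6% of the UMIs of its pool. At 2000 UMIs per cell the shares were 1.64% and 22.2%, against 0.24% in epithelial cells. The gap was present under all 18 alternatives, with log2 ratios from −4.43 to −1.88, the latter without the Klrd1 condition. In Klrd1-positive cells Ly6c2 was at 333 and 814 CPM (log2 ratio −1.29), and in CD4-side mature cells at 12.8 and 11.1 CPM.

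Members with a Ly6c2 UMI are described beside those without one within each pool, both sets being cut on the data. Cells with the UMI were deeper, with medians of 14938 (13 cells) and 9050 UMIs (111 cells) in ORFTOC and of 9153 (22 cells) and 6234 UMIs (42 cells) in FTOC, and the part of depth was not tested. Nkg7 was at 551 CPM (460 to 655) with and 352 CPM (318 to 389) without Ly6c2 in ORFTOC, and at 664 (557 to 786) and 434 CPM (366 to 511) in FTOC. Gzmb, a granule protease, was at 353 and 72.2 CPM in ORFTOC and at 393 and 105 CPM in FTOC, where 4 cells of each set held it. Ccr9, the receptor for the thymic chemokine CCL25, lay the other way, at 112 and 182 CPM in ORFTOC and 118 and 282 CPM in FTOC. Of the 5 genes of the innate-like and effector list above the expression limit, all were lower in ORFTOC, with a median log2 ratio of −0.82. Beside Ly6c2 these were Gzma (66.4 and 134 CPM), Gzmb (121 and 214), Ctsw (214 and 339) and Nkg7 (386 and 521). Gzma had 40.4% of its ORFTOC UMIs in 1 cell, and its log2 ratio went from −1.01 to −1.74 without that cell. It went to 0.06 in cells with an Xist UMI and no Y-linked UMI. Gzmb had 40.9% of its FTOC UMIs in 1 cell, and its log2 ratio of −0.82 went to −0.11 without that cell. With the rule on thinned cells it went to 0.01. Id2, below the limit, was higher, at 76.8 and 18.6 CPM.

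Ly6a, the Sca-1 gene, which interferons induce, was at 257 CPM in ORFTOC and 678 CPM in FTOC (log2 ratio −1.40, −1.62 to −1.18). It was seen in 61 of 124 and 41 of 64 members, with no cell above 12.9% of a pool's UMIs, and stayed at least 2-fold lower under all 18 alternatives. Epithelial cells held 1157 CPM of it and barcodes without a cell 409 CPM. The part of such free RNA in the difference was not tested. In CD4-side mature cells Ly6a was at 309 and 1029 CPM, and in the DP type at 267 and 210 CPM.

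All 15 genes of the interferon response list were lower in ORFTOC members, 11 of them with an interval below 1. Of all 1424 genes above the expression limit 748 were lower. Of the 11 genes of the list above that limit 2 were at least 2-fold lower, beside 0.632% of all genes, and the median log2 ratio of the 11 was −0.76. Igtp, an interferon-induced GTPase, was at 67.9 and 162 CPM (−1.25, −1.69 to −0.81). Isg15, a ubiquitin-like protein, was at 424 and 700 CPM (−0.72), while Bst2 was at 357 and 398 CPM with an interval that included no difference (−0.40 to 0.08). Summed over the list, the median cell held 3935 CPM in ORFTOC and 5378 CPM in FTOC, with ranges of 725 to 20370 and 309 to 26270 CPM, so the pools overlapped widely. The 15 genes were also lower in ORFTOC in CD4-side mature, other mature and Klrd1-positive cells, and in the DP type 8 were lower and 7 higher. Among members with an Xist UMI and no Y-linked UMI 13 of 15 genes were lower, with a median of −0.33. At a hashtag purity of 95% all 15 were lower, with a median of −0.46. Over 18 alternatives the log2 ratio of Igtp ran from −1.71 to −0.82, so that it was not 2-fold lower in all of them.

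Genes of cell division were higher in ORFTOC members. Of the 12 genes of the S phase and mitosis list 9 were higher, 7 with an interval above 1, and 3 were lower, 2 of them with an interval below 1. Of all 1424 genes above the expression limit 676 were higher. The median log2 ratio of the list was 0.53 over its 11 genes above that limit, of which 1 was at least 2-fold higher, beside 0.983% of all genes. That gene was Mki67, the proliferation marker Ki-67, at 286 and 121 CPM (log2 ratio 1.24, 0.86 to 1.64), seen in 54 of 124 and 14 of 64 members. Its log2 ratio ran from 0.90 to 1.54 over the alternatives, falling under 2-fold without the Klrd1 condition and in cells with an Xist UMI and no Y-linked UMI. Top2a, which untangles chromosomes, was at 440 and 283 CPM, and the cyclin gene Ccna2 at 154 and 83.8 CPM. The 3 lower genes, Pcna, Mcm5 and Mcm3, belong to DNA replication, with Mcm5 at 132 and 181 CPM. Outside the list, the centromere genes Cenpa (246 and 114 CPM) and Cenpf (157 and 76.3 CPM) were at least 2-fold higher. Without the Klrd1 condition their log2 ratios were 0.41 and 0.92. That of Cenpf was 0.90 without its top cell, an ORFTOC cell with 10.4% of the Cenpf UMIs of its pool. In FTOC 1 cell held 46.3% of the Cenpf UMIs, and it was kept in that alternative.

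A cell was counted as cycling with at least 2 UMIs of Mki67, Top2a, Birc5, Cdk1 and Ccna2 after thinning to 2000 UMIs. This held for 44 of 122 ORFTOC members (36.1%, 27.6 to 45.3) and 11 of 63 FTOC members (17.5%, 9.05 to 29.1). Without thinning it held for 46.0% and 34.4%. In ORFTOC 14 and in FTOC 9 of the thinned members lay at 1 or 2 UMIs, next to the limit. CD4-side mature cells gave 16.7% (7.48 to 30.2) and 27.3% (13.3 to 45.5), and all 12 genes of the list were lower there in ORFTOC. Klrd1-positive cells gave 31.9% and 23.1%, other mature cells 14.65% and 11.2%, and the DP type 39.0% and 32.5%. In these classes, in the same order, 12, 11 and 11 of the 12 genes were higher in ORFTOC, so the direction was not particular to the members. With hashtag purity of 95% the members gave 35.0% (26.5 to 44.4) and 22.2% (8.62 to 42.3).

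**Figure D5:**
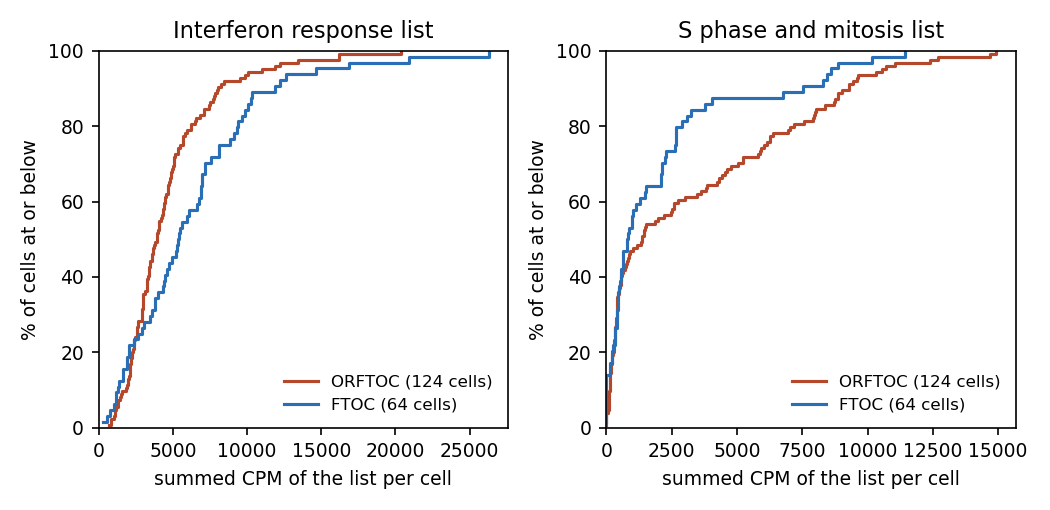
Cumulative share of CD8-side mature cells (vertical axis, %) by the summed CPM of a gene list in each cell (horizontal axis), ORFTOC (124 cells) in red and FTOC (64 cells) in blue. Left, interferon response, with medians of 3935 and 5378 CPM; right, S phase and mitosis, with medians of 1365 and 820 CPM.

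Several other genes past 2-fold had many of their UMIs in 1 cell. Apoe, at 392 and 3.72 CPM, had 44.3% of its ORFTOC UMIs in 1 cell. Pth, the parathyroid hormone gene, and Chga had 3287 and 2316 UMIs in 1 ORFTOC cell, nearly all of their UMIs in the pool. Lyz2, a macrophage gene, had 91.2% of its ORFTOC UMIs in 1 cell and Ctsl 84.5%, while the chemokine gene Ccl19 had 80.3%. Defining genes of other lineages (Epcam, Col1a1, C1qa, Lyz2 and Cd79a) were seen in 30 of 124 ORFTOC and 9 of 64 FTOC members. The summed myeloid list was at 1084 and 33.5 CPM, the epithelial list at 516 and 493 CPM, the mesenchymal list at 161 and 3.72 CPM, and the NK and innate lymphoid list at 211 and 14.9 CPM. In every one of these lists the median member had 0 UMIs. Of the B cell and erythroid list 5 of 5 genes were at 0 in ORFTOC and 4 of 5 in FTOC. With all cells that held one of those defining genes left out, Ly6c2, Ly6a and Mki67 kept log2 ratios of −3.48, −1.11 and 1.48. In contrast, Ctsl, Ccl19, Fabp5, Lyz2, Pth and Chga were no longer 2-fold higher. Apoe, Ctsb and Egr1 lost that call as well. For Egr1 this came from the CPM limit, since its log2 ratio was 1.11 or above under all 18 alternatives. Among the genes 2-fold lower, Samhd1 (133 and 274 CPM) and the γ chain segment Trgv2 (74.6 and 164 CPM) lost that call in those cells, as did Gzma by the CPM limit.

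Immediate-early genes were higher in ORFTOC members, with Fos at 251 and 89.3 CPM (log2 ratio 1.49, 1.05 to 1.96), Egr1 at 163 and 44.7 CPM and Junb at 518 and 326 CPM. Thinned to 2000 UMIs, Fos was seen in 13.1% of ORFTOC and 9.52% of FTOC members, and 1 ORFTOC cell held 29.5% of its UMIs. Without that cell Fos was not 2-fold higher. Egr1 lost its call without its own top cell, but by the CPM limit. Its log2 ratio was 1.11 or above under all 18 alternatives. Epithelial cells held 1695 CPM of Fos. Of the TRBV segments past 2-fold, Trbv17 was at 31.3 and 207 CPM and Trbv3 at 186 and 67.0 CPM, and 1 cell in each pool held 21 of 42 and 57 of 111 of the Trbv17 UMIs. TRBV3 was used by 11 of 128 ORFTOC and 4 of 68 FTOC member chains. Xist was at 126 and 346 CPM. Among cells with an Xist UMI and no Y-linked UMI the log2 ratio of Xist was 0.08.

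Of the 16 egress and late maturation genes 7 were lower in ORFTOC members with an interval below 1, and 1, H2-Q7, was higher with an interval above 1. By any amount 11 were lower, beside 748 of all 1424 genes above the expression limit. Of the 11 genes of that list above the expression limit 1, Ly6a, was at least 2-fold apart, and the median log2 ratio was −0.22. Cd52 was at 2784 and 2997 CPM and Ms4a4b at 1032 and 1202 CPM. Il7r, the receptor of the survival cytokine IL-7, was at 54.5 and 74.5 CPM, with an interval that included no difference (−1.03 to 0.14). S1pr1 and Ccr7, as selected genes, were at 128 and 85.6 CPM and at 335 and 395 CPM.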

How the data were processed

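Gene expression, TCR and hashtag libraries came from 1 droplet lane (5′ chemistry). The authors aligned reads to mm10 with Cell Ranger 6.1.2 and used Seurat 4.2.0, per the labels, while the header of the matrix names Cell Ranger 4. The deposited gene matrix held raw UMI counts for 705161 barcodes (103984163 UMIs), with hashtag counts as further rows. Filtered TCR contigs (7227 in 4649 barcodes, 4119 of them assigned cells) came with UMI counts, as deposited.

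Of 10910 barcodes with at least 600 genes, 10245 passed the mitochondrial limits and 9349 had 1 hashtag (5237 ORFTOC, 4112 FTOC, with medians of 8268 and 5534 UMIs). The 896 with mixed hashtags were dropped as doublets between pools. Doublets within a pool were not removed. A neighbour rule marked 9 members, and their removal was an alternative. The members, the comparison classes, the gene lists and the 2-fold limit were chosen with earlier results of these data known.

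UMIs were summed per pool and scaled to CPM. A count under 3 was set to 3 in ratios, and genes needed a mean of 100 CPM over the groups compared. Named were the fixed lists, the 5 genes with the largest and smallest pool ratios, the 10 highest against other TRB-positive cells, the 5 most used V genes, and others marked as chosen after their values were seen. Of the last kind were also Cenpa, Cenpf, Fabp5, Ctsl, Ctsb, Samhd1, Trgv2, Trbv3, Col3a1, Dcn and H2-Aa as genes past 2-fold, TRAJ31 and TRAJ40, and the junctions printed. With 1 sample per pool no test was made. UMI counts and assembled contigs are not independent cultures. Germline V, D and J segments were matched by name to GENCODE vM39 transcripts. Coordinates are those of RefSeq for mm10. Python 3.11.15, numpy 2.4.6, scipy 1.17.1, pandas 2.3.3, scikit-learn 1.9.0 and matplotlib 3.10.9 were used, and the count steps were tested on simulated data. Some genes are not reported here.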

Additional observations from a re-analysis of the deposited data

Results flagged for a closer look

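The unfiltered contig list, which no comparison above used, held further rearrangements of the CD8-side mature cells. A TRA contig that was not productive was found in 30.65% of ORFTOC members (38 of 124, 22.7 to 39.6) and 29.69% of FTOC members (19 of 64, 18.9 to 42.4). A TRB contig that was not productive was found in 15.32% (19 of 124, 9.49 to 22.9) and 14.06% (9 of 64, 6.64 to 25.02). These were marked because they lie outside the filtered list and above the 1.60% of cells that a count of 0 allows. That limit is over the 188 members of both pools. The mark does not show that such contigs were unusual, as no share in another class is given. Of the members without a productive TRA chain, 20 in ORFTOC and 10 in FTOC, some TRA contig was present in 7 and 1.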

How the results depend on the processing

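No paired analysis was possible because each pool was 1 sample and the cultures in it carried no label. Of 190 recomputed values of the 13 planned results, 167 kept within the interval of the reported value (or 1.5 times a count) and 23 did not, and the causes were not tested. Fewer cells enter at 95% hashtag purity (27 FTOC members) or with Xist and no Y-linked UMI. The last, the removal of Pth cells and the removal of the top cell of each gene were chosen after seeing the data.

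The ORFTOC share of members was 81.51% at 95% purity and 43.02% in Xist-only cells. Members among TRB-positive cells of FTOC were 3.73% with at least 1000 genes, 7.26% at 95% purity, 4.78% with the rule on thinned cells and 8.53% without the Klrd1 condition, which gave 14.84% in ORFTOC. TRA chains were in 75.68% of Xist-only ORFTOC members. Repeated chains were 10.53% in Xist-only ORFTOC members, and 0% in FTOC at 95% purity, with at least 4 Cd8 UMIs, and in Xist-only cells. The FTOC median TRAJ number without the Klrd1 condition was 41. Genes at least 2-fold higher in ORFTOC, 14 as reported, numbered 37 with the rule on thinned cells, 6 without the Klrd1 condition, 44 at a limit of 50 CPM, 32 when TCR, ribosomal and mitochondrial genes were left out of the scaling, 28 in Xist-only cells and 5 without the top cell. Genes lower, 9 as reported, numbered 15 at 95% purity, 5 without the Klrd1 condition, 18 at 50 CPM and 17 in Xist-only cells. Without the top cell 4 of the 14 and 5 of the 9 remained.

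Log2 ratios that changed sign were those of Apoe (−2.91), Ccl19 (−0.91), Chga (−0.91), Pth (−0.91), Ctsb (−0.044) and Trbv17 (0.74) with the rule on thinned cells; Chga and Pth (−1.25) without neighbour doublets; Ccl19, Chga, Lyz2 and Pth (−0.95), Ctsl (−0.14) and Fabp5 (−0.065) without cells of another lineage; Chga and Pth (−1.29) without Pth cells or the top cell; and Ccl19 (−1.62), Ctsl (−0.064), Gzma (0.06) and Xist (0.076) in Xist-only cells. Depth limits genes under about 100 CPM in 64 FTOC members.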

Other observations

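Expression of the paired Cd8 chains varied among the members. Both chains were seen in most cells, but 8 ORFTOC and 4 FTOC members held Cd8a alone and 6 and 5 held Cd8b1 alone, and the ratio of Cd8b1 to Cd8a UMIs was 0.93 in ORFTOC and 1.12 in FTOC. At the TRA locus on chromosome 14, 15 ORFTOC and 6 FTOC members had 2 TRA chains, and 4 in each pool had 2 TRB chains. TRA junctions, which hold no D segment, had no base between the V and J matches in 16.0% (9.89 to 23.8) of ORFTOC and 28.3% (17.5 to 41.4) of FTOC member chains, against 19.9% and 10.4% in the DP type. TRAJ31 was the most used J gene (14 of 179), followed by TRAJ40 with 12, of which 7 were among the 60 chains of FTOC members.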
